A study of Mus musculus with 6 samples.

Results

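The cytosolic ribosomal protein genes were followed in whole skin of GC13 mice, which carry a transgene that raises Hoxc13, a homeodomain factor of the hair follicle, and in the same tissue from mice of FVB, an inbred strain. Members were all probe sets of the array with a single gene symbol made of Rpl or Rps and a number, of Rplp and a number, or Rpsa, which gave 49 probe sets for 35 genes, among 12422 probe sets other than controls and 8251 gene symbols. The symbol rule also touched Rps6kb2, Rps6ka3 and Rps6kc1, which encode kinases and were left out. The 3 GC13 and the 3 FVB samples were total RNA of whole skin taken 5 days after birth, each on its own single-sample expression array. The labels name neither the promoter of the transgene nor the background strain of the line. Nothing in them ties a sample to a mouse of its own, so the p-values below cover the spread between samples, be it biological or technical.

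The eukaryotic ribosome joins a small subunit, which reads the messenger RNA, and a large subunit, which forms the peptide bond. Each carries 1 copy of most of its proteins, so the genes for them, named Rps and Rpl in mice, are expressed together and strongly in every growing cell. In skin, loss of a ribosomal protein does not act like a uniform loss of translation: mutations of mouse Rps19 and Rps20 cause dark skin through p53 and Kit ligand made by keratinocytes, and mutation of Rpl38 alters the axial skeleton by changing translation of Hox messenger RNAs.

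The deposited values were linear intensities, whose sums were 1736141, 1640876 and 1665521 per GC13 array and 1644444, 1626361 and 1630411 per FVB array. The number of arrays limits the precision. Gapdh control probe sets for both ends of that messenger RNA, whose 3' over 5' ratio grows as 5' ends are lost, gave 2.22, 9.58 and 2.19 for GC13 and 0.931, 0.958 and 0.894 for FVB, with all GC13 arrays higher. The same ratio for Actb gave 1.26, 3.80 and 1.43 for GC13 and 1.36, 1.26 and 1.16 for FVB, where GC13 replicate 1 lay within the FVB values. The part of RNA quality in the results was not tested. GC13 replicate 2 had the highest ratio of both genes and stood apart from its group, so results that rest on it are also given without it. Lists of skin markers differed between the groups after centring, where 16.3% of all probe sets lay wholly above FVB and 7.91% wholly below. Of 6 epidermal markers 2 lay wholly above FVB and the median log2 difference was 0.69: Krt1 and Flg, made in differentiating epidermis, had differences of 1.11 and 1.05, while Krt10 overlapped at 0.13 and the basal keratin genes Krt5 and Krt14 averaged under 10 in both groups. Their summed intensity ran from 5744 to 10172 in GC13 and from 5255 to 5474 in FVB. Of 5 fibroblast markers 4 lay wholly above FVB, with a median of 0.44 and sums from 8925 to 10404 in GC13 and from 7057 to 7725 in FVB. Of 5 skeletal muscle markers 3 lay wholly above, with a median of 0.40 and sums from 2163 to 2519 in GC13 and from 1990 to 2141 in FVB, and of 4 endothelial markers 1 did, with a median of 0.52 and sums from 692 to 939 in GC13 and from 414 to 532 in FVB. Of 3 adipocyte markers 1 lay wholly above, with a median of 0.31 and sums from 1610 to 2317 in GC13 and from 1472 to 1551 in FVB. Of 8 hair follicle markers 3 lay wholly below FVB and 1 above, with a median of -0.32, among them Dlx3 at -0.85, and sums from 12691 to 14903 in GC13 and from 15109 to 15960 in FVB. Of 4 melanocyte markers 3 lay wholly below, with a median of -0.53 and sums from 482 to 774 in GC13 and from 922 to 991 in FVB. The sums of the leukocyte and erythroid markers overlapped between the groups. None of the markers was at 0 or past the limma threshold, and their part in the results below was not tested. In whole skin, fewer cells of a type and less RNA per cell cannot be told apart. The Y-linked gene Eif2s3y had 3.25, 143 and 4.60 in GC13 and 69.4, 98.9 and 79.6 in FVB, so 2 GC13 arrays lay below all the others. The Y-linked gene Uty had 4.87, 34.7 and 7.19 in GC13 and 13.3, 15.2 and 13.8 in FVB. It too was lowest on GC13 replicates 1 and 3. The labels used here give no sex, and it was not adjusted for. In a fit without GC13 replicate 2, line and Y-linked signal go together on all arrays and cannot be told apart. The array weights given below also set that replicate lowest.

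None of the 36 tested ribosomal protein probe sets passed the test between GC13 and FVB, in either direction. The test was limma on log2(intensity + 2), with each array centred on its median and Benjamini-Hochberg adjustment over 9316 probe sets at a threshold of 0.05, and it called 0.472% of all tested probe sets, 0.0859% as higher and 0.386% as lower in GC13. At an unadjusted p under 0.05 there were 5 of 36 members, or 13.9%, against 15.5% of all tested probe sets. The smallest limma adjusted p of a member was 0.196. With arrays weighted by their fit to the rest, GC13 replicates 1, 2 and 3 had weights of 4.12, 0.107 and 0.329. The GC13 side of that fit thus rested mostly on replicate 1. In it 17 of 36 members passed (47.2%), against 41.3% of all tested probe sets. The other 13 probe sets lay among the 25% with the lowest mean over the 6 arrays, a filter on both groups together, and have values but no test.

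Over all 49 members, tested or not, the log2 difference (GC13 minus FVB) had a median of 0.20, and 39 lay above 0 and 10 below. Over all 12422 probe sets the same median was 0.14 and 63.0% lay above 0. Members ran from -0.80 to 1.21 on this scale, all 12422 probe sets from -3.42 to 2.21. The 27 small subunit probe sets had a median of 0.18 and the 22 large subunit probe sets 0.22, and the difference between the subunits was not tested. For 15 members the identifier carries a letter suffix (f, i, r or s), used among others for shared or family sequence. Their median was 0.30, against 0.16 for the other 34. At an unadjusted limma p under 0.05 there were 3 of 10 tested suffixed members (30%) and 2 of 26 tested others (7.69%), against 15.5% of all tested probe sets. The share among all suffixed probe sets of the array was not computed. The highest differences, on 1 probe set each of Rps28, Rps13 and Rps4x, were on suffixed ones. These were also dim, with mean intensities of 30.9, 19.8 and 12.7, and the parts of suffix and dimness were not tested. After centring, 7 members (14.3%) had all GC13 arrays above all FVB arrays, against 16.3% of all probe sets, and 2 (4.08%) had all GC13 arrays below, against 7.91%. Both shares were near or under those of the array as a whole. The direction of the median rested on the scaling: with quantile normalization, which moved the median of all 12422 probe sets to 0.03, the median of the members was -0.04.

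**Figure D1:**
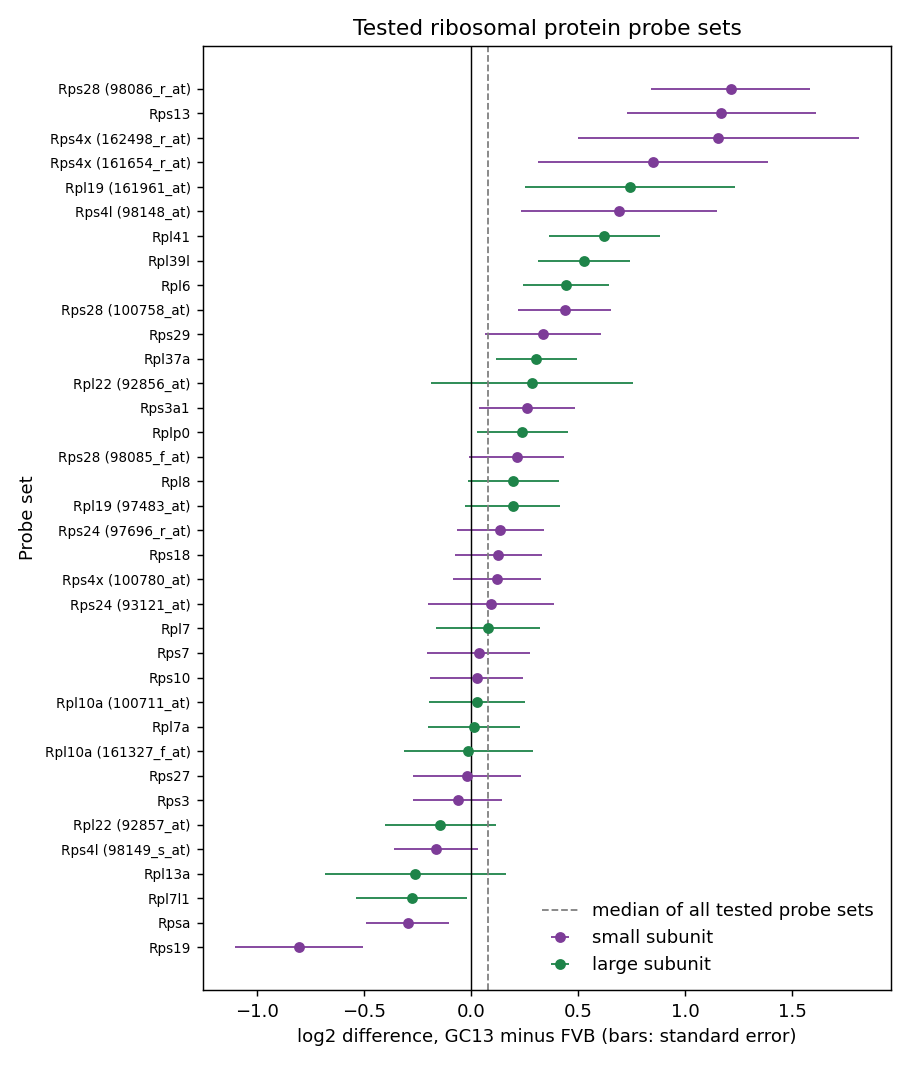
The log2 difference, GC13 minus FVB, is plotted on the horizontal axis for each of the 36 tested probe sets, with bars for the standard error of the limma fit; purple marks the small and green the large subunit, and the dashed line is the median of all tested probe sets. Rps19 lies lowest at -0.80 and 1 of the 3 Rps28 probe sets highest at 1.21.

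The promoters of these genes have features that the symbol rule did not use. RefSeq windows of 300 bases, from 250 before to 50 after an annotated start in GRCm38.p6, were found for 28 of the 35 genes. The letters CCGGAA, the core bound by the ETS family and searched on both strands, occurred in the windows of 17 of 28 genes (60.7%), against 16.7% of 27025 genes in the table. The letters AAGATGG, part of the site of YY1 and likewise searched on both strands, occurred in 7 (25%), against 7.28%. A run of at least 8 C or T within 20 bases either side of the start, as in the terminal oligopyrimidine tract by which mTOR signalling controls translation of these messenger RNAs, occurred in 11 (39.3%), against 18.4%. A match is a description of letters, not of a factor bound there. A gene without a match may still have a shorter pyrimidine tract, or a start other than the annotated one, which this search does not count. For the 2 most negative and the 3 highest members with a mean intensity above 500, and for Rpl13a, which is described below, the 60 bases before and 20 bases after the start are shown 5' to 3', with CCGGAA on either strand and pyrimidine runs reaching within 20 bases of the start in capitals. The windows are chr7:24884532-24884611 on the plus strand for Rps19, which has 3 starts in the table, of which the one listed first is shown, chr9:120127706-120127785 on the plus strand for Rpsa, chr7:45128726-45128805 on the minus strand for Rpl13a, chr5:121204441-121204520 on the plus strand for Rpl6, chr10:128549149-128549228 on the minus strand for Rpl41 and chr17:33824543-33824622 on the minus strand for Rps28.
Rps19: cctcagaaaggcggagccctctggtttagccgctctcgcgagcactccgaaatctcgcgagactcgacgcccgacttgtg
Rpsa: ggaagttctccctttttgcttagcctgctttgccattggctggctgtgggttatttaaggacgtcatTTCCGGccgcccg
Rpl13a: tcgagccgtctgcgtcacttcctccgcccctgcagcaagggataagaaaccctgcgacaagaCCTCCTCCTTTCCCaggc
Rpl6: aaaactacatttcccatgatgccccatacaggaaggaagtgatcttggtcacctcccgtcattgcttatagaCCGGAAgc
Rpl41: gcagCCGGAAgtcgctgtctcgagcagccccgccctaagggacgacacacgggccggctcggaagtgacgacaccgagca
Rps28: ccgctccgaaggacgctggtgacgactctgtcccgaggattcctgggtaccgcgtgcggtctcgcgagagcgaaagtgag
Of these 6 windows, those of Rpsa, Rpl6 and Rpl41 hold the ETS letters and that of Rpl13a holds a pyrimidine run at the start. Those of Rps19 and Rps28 hold neither as searched, which does not speak to shorter pyrimidine runs.

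Among small subunit genes, Rps19 (Entrez 20085), the gene of a protein needed to mature the small subunit, had the lowest value in GC13 relative to FVB. Its intensity was 1036, 1735 and 1099 in GC13 and 2388, 2246 and 2291 in FVB. All GC13 arrays lay below all FVB arrays, and GC13 replicate 2 lay closest to FVB. The log2 difference was -0.80 (SE 0.30, limma adjusted p = 0.264), so the level was 1.75-fold lower in GC13 on that scale. Without GC13 replicate 2 it was -1.13 (SE 0.14, limma adjusted p = 0.0103), past the threshold, in a fit that called 15% of all tested probe sets and 5 of 36 members (13.9%). The GC13 arrays left in that fit are those with low Eif2s3y, so line and Y-linked signal cannot be told apart in it. Over the 18 alternatives run for Rps19 the difference ran from -1.13 to -0.63 and the limma adjusted p from 0.000899 to 0.655. Rps19 was thus lower in GC13 under each of them, also with quantile normalization.

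Rpsa, which encodes a small subunit protein also known as the laminin receptor, had 642, 541 and 595 in GC13 and 768, 739 and 785 in FVB. The groups did not overlap, and the log2 difference was -0.30 (SE 0.19, limma adjusted p = 0.499). It kept its direction under all 18 alternatives, from -0.44 to -0.22, and passed the threshold under none of them. Rps3, at the entry of the messenger RNA channel, had 1825, 1580 and 1504 in GC13 and 1759, 1770 and 1840 in FVB, and these groups overlapped.

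Other bright small subunit members differed little between the lines. Rps4x, an X-linked gene, had 2708, 2677 and 2512 in GC13 and 2619, 2491 and 2521 in FVB on its bright probe set, a log2 difference of 0.12 (SE 0.21). Rps7, whose protein binds Mdm2, had 2319, 2017 and 1609 in GC13 and 2049, 2031 and 1956 in FVB. Rps18, in the head of the small subunit, had 2859, 1861 and 2495 in GC13 and 2344, 2193 and 2301 in FVB. In each of these 3 genes the GC13 arrays lay on both sides of FVB arrays. Rps10 and the bright probe set named Rps24 overlapped in the same way, with log2 differences of 0.03 and 0.14. Rps3a1 had 3631, 2685 and 2564 in GC13 and 2569, 2551 and 2577 in FVB, and its log2 difference of 0.26 turned to -0.05 with quantile normalization.

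Rps28, which encodes a small protein at the exit of the messenger RNA channel, was measured by 3 probe sets. The brightest had 4170, 2709 and 3179 in GC13 and 2684, 2430 and 2579 in FVB, with no overlap and a log2 difference of 0.44 (SE 0.22, limma adjusted p = 0.379). That difference was 0.12 with quantile normalization and 0.29 without GC13 replicate 1. With array weights, where GC13 replicate 1 weighed most, it was 0.68 and passed (limma adjusted p = 0.00569, with a range up to 0.761 over 18 alternatives). Another bright one had 2596, 2271 and 2032 in GC13 and 2200, 2087 and 1948 in FVB, where the groups overlapped and the difference was 0.21. The dim one had 53.2, 17.5 and 64.0 in GC13 and 14.4, 17.7 and 18.5 in FVB. Its difference of 1.21 (SE 0.37, limma adjusted p = 0.196) was the highest of all members and was carried mostly by GC13 replicates 1 and 3. GC13 replicate 2 lay within the FVB values as deposited and, after centring, above them at 0.32 over the FVB mean, against at most 0.10 for an FVB array. Without GC13 replicate 2 it was 1.66 (limma adjusted p = 0.00516, with a range of 0.000449 to 0.581 over 18 alternatives), and the brighter 2 probe sets did not pass. The dim probe set and the less bright of the other two were designed from the same database sequence, per the platform annotation, so probe sets of this gene disagreed in size while all 3 lay above 0.

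Among large subunit genes, Rpl6 and Rpl41 were higher in GC13 by the most on bright probe sets. Rpl6 (Entrez 19988) had 2817, 2060 and 2447 in GC13 and 1971, 1872 and 1780 in FVB, with no overlap and a log2 difference of 0.44 (SE 0.20, limma adjusted p = 0.339). With quantile normalization it was 0.26, and it stayed above 0 under all 18 alternatives. Rpl41 (Entrez 67945), which encodes a protein so small that it is little more than a basic peptide, had 6705, 3151 and 4930 in GC13 and 3375, 3013 and 3264 in FVB. GC13 replicates 1 and 3 lay above all FVB arrays and replicate 2 among them on the deposited scale, while after centring all GC13 arrays lay above FVB. The log2 difference was 0.62 (SE 0.26, limma adjusted p = 0.307), 0.04 with quantile normalization and 0.82 without GC13 replicate 2 (limma adjusted p = 0.0469, with a range of 0.00193 to 0.920 over 18 alternatives).

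**Figure D2:**
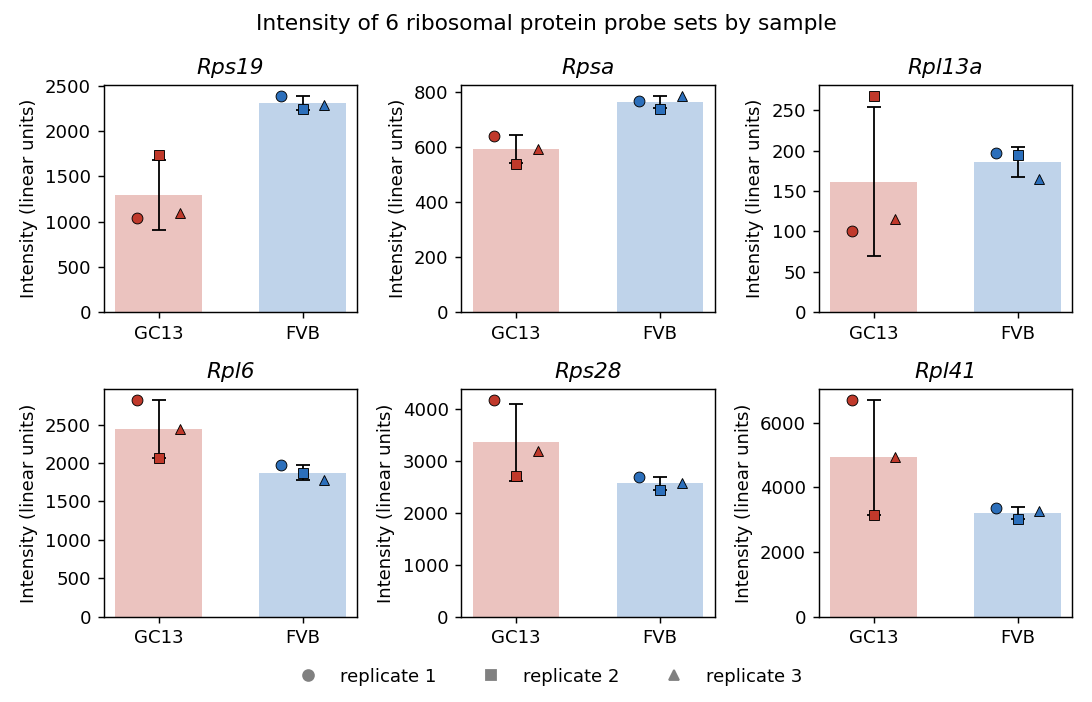
Deposited intensity is plotted for 6 probe sets, with GC13 at the left of each panel and FVB at the right; bars are means, error bars are SD over 3 arrays and symbols mark the replicates. Rps19 and Rpsa lie lower on every GC13 array, Rpl6 and Rps28 (its brightest probe set) lie higher on every one, in Rpl13a GC13 replicate 2 stands away from replicates 1 and 3, and in Rpl41 the 3 GC13 arrays are spread from 3151 to 6705.

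Rpl13a, a member of the complex that silences interferon-induced messenger RNAs and a common reference gene, had 101, 268 and 116 in GC13 and 197, 195 and 165 in FVB. GC13 replicates 1 and 3 lay below all FVB arrays and replicate 2 above them. The log2 difference of -0.26 (SE 0.42, limma adjusted p = 0.803) was -0.79 without GC13 replicate 2 (limma adjusted p = 0.0311, with a range of 0.00637 to 0.990 over 18 alternatives). Rplp0, the base of the stalk that recruits translation factors and another common reference gene, had 4110, 2721 and 3225 in GC13 and 3087, 2861 and 2885 in FVB. Its groups overlapped, and its log2 difference of 0.24 turned to -0.10 with quantile normalization. As median-centred, neither reference gene was past the threshold, and the 2 differed in sign. With quantile normalization Rpl13a had -0.315, so both lay below 0. The limma adjusted p of Rplp0 ran from 0.0230 to 0.977 over 18 alternatives.

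The remaining bright large subunit members overlapped between the lines on the deposited scale. Rpl8, whose protein lies near the peptidyl transferase centre, had 3481, 2173 and 2969 in GC13 and 2660, 2389 and 2728 in FVB. Rpl37a had 720, 582 and 859 in GC13 and 567, 605 and 645 in FVB, and separated only after centring, with a log2 difference of 0.31 (SE 0.19, limma adjusted p = 0.479). Rpl7, Rpl7a and the bright probe sets of Rpl10a and Rpl19 had log2 differences from -0.01 to 0.19.

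Among the paralogues below, which replace or resemble a ribosomal protein, only Rpl39l had its groups apart after centring. Rpl39l, a paralogue of Rpl39 best known from testis, had 72.2, 60.6 and 59.6 in GC13 and 50.7, 45.2 and 42.4 in FVB. Its groups did not overlap, and the log2 difference was 0.53 (SE 0.21, limma adjusted p = 0.297), from 0.34 to 0.66 over 18 alternatives. Rpl7l1, which resembles Rpl7, had 34.2, 41.9 and 28.6 in GC13 and 44.4, 48.2 and 41.2 in FVB, where 1 GC13 array lay within the FVB values. Its log2 difference was -0.28 (SE 0.26). Rps4l, a paralogue of Rps4x, had 215, 150 and 207 in GC13 and 234, 216 and 218 in FVB on its brighter probe set. On the other it had 9.27, 5.14 and 31.3 in GC13 and 5.39, 6.74 and 9.43 in FVB. The log2 differences were of opposite sign, at -0.16 (SE 0.20) and 0.69 (SE 0.46), and the groups overlapped on both after centring. Rps27l, a p53 target, was listed between 1.17 and 7.73 on all arrays and was not tested, and Rps27 itself had 113, 70.2 and 143 in GC13 and 101, 98.3 and 138 in FVB.

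Many probe sets of abundant messenger RNAs were dim, so the intensity of a member does not give the level of its transcript. Of the 49 members 21, for 19 genes, had a mean intensity above 500, 8 lay between 25 and 500, and 20, for 16 genes, lay at 25 or lower. Rps4x shows the range within a gene: of its 5 probe sets the brightest averaged 2588 over the 6 arrays and the dimmest 1.73. Rpl7 averaged 2385 on 1 probe set and 3.09 on another, Rps24 averaged 2611 and 9.49, and Rpl19 averaged 2206 and 9.12. The bright probe set named Rps24 and the bright one named Rpl7 were designed from the same database sequence, per the platform annotation, so the gene name of at least 1 of them is uncertain. Rpl22, needed by developing T cells, averaged 131 and 15.4 and Rps29 averaged 36.8 and 4.86 on their brighter and dimmer probe sets.

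The genes with mouse mutants of pigmentation and axial skeleton were therefore unequally covered. The 1 probe set of Rps20 had 7.99, 2.08 and 9.73 in GC13 and 1.67, 7.06 and 4.26 in FVB, and the 2 probe sets of Rpl38 lay between 1.03 and 12.6 on all arrays. None of these 3 was tested. Rps14, Rps15, Rpl32, Rpl35a and Rpl39 were also represented only by untested probe sets, with means over the 6 arrays under 10. Rps13 had 42.8, 11.6 and 30.0 in GC13 and 8.91, 6.77 and 18.7 in FVB, a log2 difference of 1.17 (SE 0.44, limma adjusted p = 0.271) that was 1.57 without GC13 replicate 2 (limma adjusted p = 0.0432, with a range of 0.00211 to 0.668 over 18 alternatives).

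The 21 members above 500, a limit chosen after the intensities were seen, varied more among the GC13 arrays than among the FVB arrays. The SD of the centred log2 values was larger in GC13 for 21 of 21, with a median SD of 0.26 in GC13 and 0.09 in FVB. The same held for 95.9% of the 705 probe sets of the whole array above 500, so this spread was shared by the array. Relative to the FVB mean, the 21 members had medians of 0.28, 0.24 and -0.11 on GC13 replicates 1, 2 and 3, and of 0.09, -0.03 and -0.04 on the FVB arrays. The GC13 arrays thus lay on both sides of FVB. On the deposited scale, before centring, 15 of the 21 members were brightest on GC13 replicate 1. On that scale 5 were dimmest on GC13 replicate 2, the array with the lowest median intensity (29.1), and 6 on GC13 replicate 3.

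**Figure D3:**
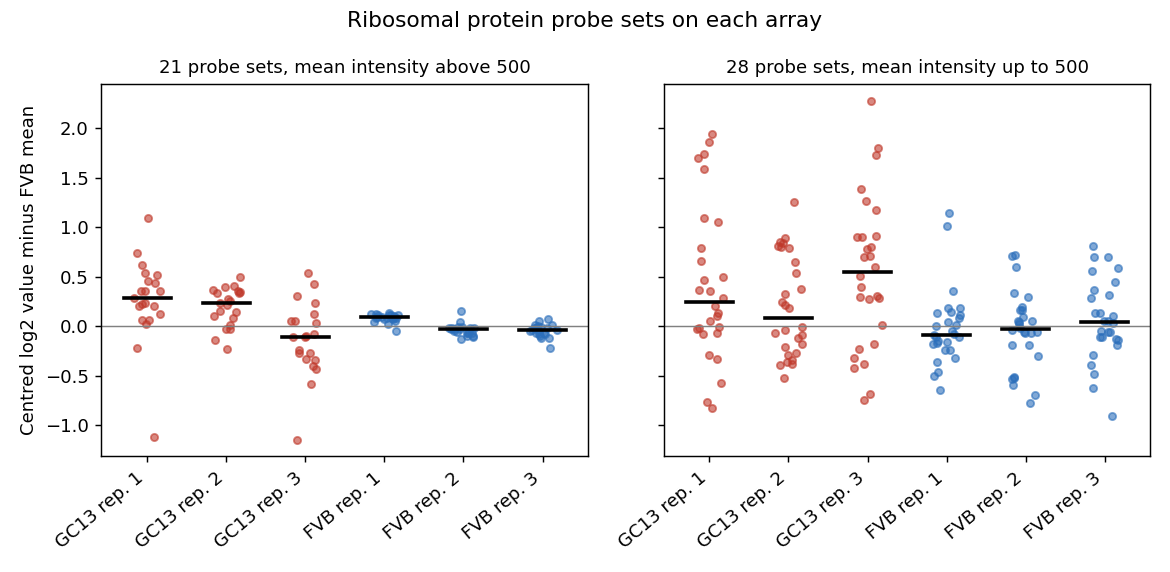
Each point is a ribosomal protein probe set, plotted on each array as its centred log2 value minus its mean over the FVB arrays, with the 21 probe sets above a mean intensity of 500 at the left and the other 28 at the right; black lines are medians. At the left the median is above 0 on GC13 replicates 1 and 2 and at -0.11 on replicate 3, and the lowest point of GC13 replicate 1 and of replicate 3 belongs to Rps19.

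As a share of the summed intensity of all 12422 probe sets, the 49 members made up 3.28%, 2.65% and 2.76% on the GC13 arrays and 2.84%, 2.73% and 2.74% on the FVB arrays. The share was highest on GC13 replicate 1 and lowest on GC13 replicate 2. The large subunit members made up 1.71%, 1.24% and 1.39% in GC13 and 1.33%, 1.28% and 1.28% in FVB, and the small subunit members 1.57%, 1.40% and 1.37% in GC13 and 1.50%, 1.45% and 1.46% in FVB. The groups overlapped in all 3 shares. These shares leave out the ribosomal protein probe sets that list several genes, described below.

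The scaling of the arrays moved both bright and dim members. The log2 difference as centred exceeded that with quantile normalization by a median of 0.19 for the 21 members above 500, 0.21 for the 20 at 25 or lower and -0.003 for the 8 between. The widest shift, 0.58, was that of Rpl41. The highest intensity of an array was 6705, 3506 and 4930 in GC13 and 3673, 3058 and 3320 in FVB, and the value of 6705 on GC13 replicate 1 was that of Rpl41. The median log2 difference of the 21 members above 500 was 0.13 as centred, 0.06 as deposited, -0.12 with quantile normalization and -0.07 with cyclic loess. It was 0.05 without GC13 replicate 2, 0.07 without GC13 replicate 1 and 0.25 without GC13 replicate 3. All 705 probe sets above 500 had a median of 0.14 as centred and -0.02 with quantile normalization. Of the 49 members 18 changed sign with quantile normalization and 15 with cyclic loess.

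**Figure D4:**
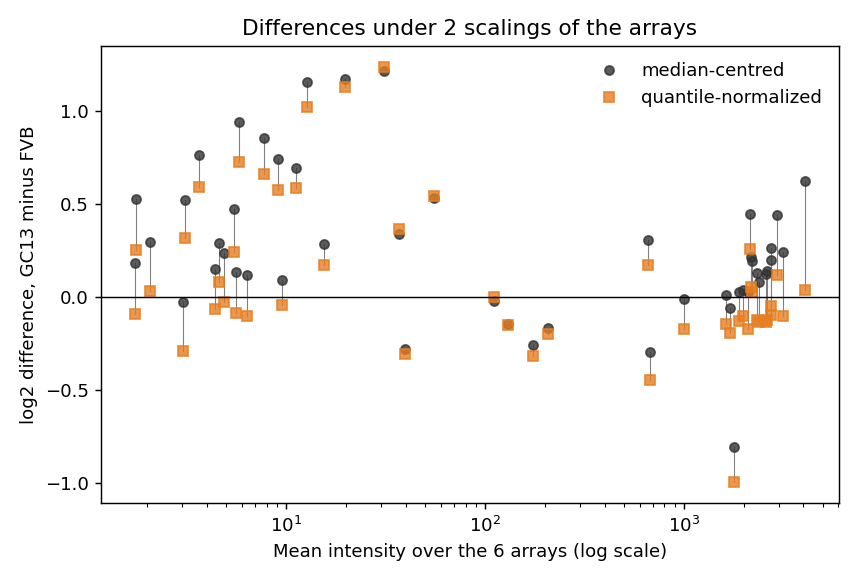
The log2 difference, GC13 minus FVB, of each of the 49 members is plotted against its mean intensity over the 6 arrays (log axis), as median-centred (black circles) and as quantile-normalized (orange squares), with a line joining the 2 values of a probe set. Among members above 500 the orange squares lie below the black circles, and Rpl41, at the far right, is at 0.62 as centred and at 0.04 as quantile-normalized.

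A further 39 probe sets listed several genes, at least 1 of them a ribosomal protein gene. They are given without names, since signal of the genes listed together cannot be told apart. Of the summed intensity they made up 4.11%, 3.40% and 3.44% on the GC13 arrays and 3.52%, 3.34% and 3.42% on the FVB arrays. That was more than the members on each array, so the share of the members is not that of all ribosomal protein genes. The 24 of them above 500 had a median log2 difference of 0.19 and ran from -0.51 to 0.44. None of the 35 tested ones passed, and 0 had an unadjusted limma p under 0.05. After centring 6 of 39 (15.4%) lay wholly above FVB and 1 (2.56%) wholly below, against 16.3% and 7.91% of all probe sets.

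Genes that make, load or regulate the ribosome had no member past the limma threshold in any of the 8 lists, where 0.472% of all tested probe sets passed and 15.5% had an unadjusted p under 0.05. Differences of single list genes are given only as centred. Among elongation factors and other genes with a terminal oligopyrimidine tract, 0 of 13 tested genes passed, also at an unadjusted p under 0.05. The median over 14 was 0.16 as centred and 0.01 with quantile normalization, so its size rested on the scaling. Eef1a1, which brings aminoacyl-tRNA to the ribosome, had 5522, 3086 and 3822 in GC13 and 3043, 2772 and 2947 in FVB, with no overlap and a log2 difference of 0.54 (SE 0.24). Pabpc1, the poly(A) binding protein gene, had 0.40 (SE 0.22). Fau, a fusion gene that encodes a ubiquitin-like protein joined to a small subunit protein, was the 1 measured ribosome gene outside the symbol rule, with 12.6, 6.75 and 25.2 in GC13 and 8.17, 4.92 and 10.3 in FVB.

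Of 29 tested initiation factors 0 passed, 4 had an unadjusted p under 0.05, and the median over 30 was -0.11. Eif2b4, a subunit of the exchange factor that recycles eIF2, had 109, 193 and 184 in GC13 and 314, 303 and 395 in FVB, a log2 difference of -1.01 (SE 0.29, limma adjusted p = 0.182). Eif1b, a paralogue of the start-codon scanning factor, had 256, 257 and 270 in GC13 and 156, 171 and 182 in FVB, a log2 difference of 0.69 (SE 0.20, limma adjusted p = 0.173). The groups of both were apart, in opposite directions.

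Of 30 tested ribosome biogenesis factors 0 passed and 2 had an unadjusted p under 0.05. Their median was 0.04 as centred and -0.03 with quantile normalization. Bop1, which processes the large subunit RNA, had 82.5, 42.6 and 73.0 in GC13 and 119, 109 and 131 in FVB, a log2 difference of -0.81 (SE 0.24). Utp14a, of the small subunit processome, had 128, 141 and 120 in GC13 and 98.7, 64.1 and 86.4 in FVB, a log2 difference of 0.72 (SE 0.26). Of the 10 tested genes of RNA polymerase I and its factors 0 passed and 2 had an unadjusted p under 0.05, with a median of 0.06. Polr1b and Taf1a, a subunit of the polymerase and a part of its promoter factor, had 0.48 (SE 0.19) and 0.51 (SE 0.21), with GC13 above FVB on every array.

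Of 18 listed genes of the mTOR and S6 kinase pathway, which links nutrients to ribosomal protein synthesis, 11 had a probe set naming them alone. Rptor, Rheb and Rps6kb1 were among those without one. Of 10 tested genes 0 passed and 3 had an unadjusted p under 0.05. The median over 11 was 0.42 as centred and 0.32 with quantile normalization, with 7 above 0 and 4 below. After centring, 5 of the 11 lay above FVB on every GC13 array, against 16.3% of all probe sets. The kinase gene Mtor had 184, 172 and 183 in GC13 and 131, 125 and 108 in FVB, a log2 difference of 0.64 (SE 0.20, limma adjusted p = 0.21). Eif4ebp2, a repressor of cap-dependent initiation, had 522, 519 and 705 in GC13 and 344, 363 and 376 in FVB, a log2 difference of 0.74 (SE 0.20, limma adjusted p = 0.151). Tsc2 had 246, 175 and 220 in GC13 and 148, 145 and 165 in FVB, a log2 difference of 0.54 (SE 0.20, limma adjusted p = 0.254). Rps6kb2, an S6 kinase gene, had 71.9, 33.4 and 64.2 in GC13 and 71.4, 68.9 and 79.2 in FVB, and its groups overlapped. Since the list holds both kinase and repressor genes, its median gives no direction of the pathway.

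Of 10 tested genes of the Myc and p53 response to ribosomal stress 0 passed and 1 had an unadjusted p under 0.05, with a median over 11 of -0.13. Mga, Trp53, Bax and Bbc3 were listed but had no probe set naming them alone. The p53 gene itself thus has no value here, and the median is no measure of its response. The p53 target Cdkn1a had 179, 161 and 191 in GC13 and 299, 286 and 355 in FVB, wholly apart, with a log2 difference of -0.74 (SE 0.20, limma adjusted p = 0.151). Max, the partner of Myc, had -0.39 (SE 0.31). Mxd1, which fell under the filter and was not tested, had 1.86, 0.999 and 1.48 in GC13 and 12.2, 16.8 and 18.3 in FVB. Its log2 difference of -2.28 was the lowest of the list, with the groups apart. Kitl, the Kit ligand gene raised in skin of Rps19 mutant mice, had 136, 349 and 157 in GC13 and 277, 280 and 249 in FVB, so GC13 replicates 1 and 3 lay below FVB and replicate 2 above. Of 59 tested mitochondrial ribosomal protein genes, whose products form a separate ribosome, 0 passed and 6 had an unadjusted p under 0.05, with a median over 61 of -0.04. Mrps5 had 7.83, 7.60 and 4.72 in GC13 and 23.8, 33.1 and 19.5 in FVB, a log2 difference of -1.57 (SE 0.30, limma adjusted p = 0.0797), and Mrps11 had -0.96 (SE 0.22, limma adjusted p = 0.126).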

How the data were processed

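The authors deposited linear intensities, 1 per probe set and array, for 12488 probe sets, 66 of them controls. Judging by the values, the authors scaled every array to a common trimmed mean: without the highest and lowest 2% of values it was 99.981 to 99.984 on each array. Their software is not given in the sources used here. Gene names came from the platform annotation, updated through Entrez identifiers with the RefSeq table of GRCm38.p6. Of 12422 probe sets 10833 had 1 gene, 396 several and 1193 none listed. Values were set on the log2(intensity + 2) scale, on which folds of dim probe sets are understated, and centred on each array's median. The 25% with the lowest mean were left out, leaving 9316 for limma 3.58.1 in R 4.3.3 (lmFit, eBayes, two-sided, Benjamini-Hochberg). The script was tested on simulated arrays. A gene of the other lists stood by its brightest probe set. Named members were the extremes of the difference and of intensity, genes with several probe sets, common reference genes, paralogues and genes with mouse mutants, and, from each list, the 2 genes with the smallest p; other members and list genes were named after their values were seen. Rps3a1, whose suffix the written rule did not list, was kept as a member. Members and lists were chosen with earlier results of these data known. Replicate numbers are shared by both groups in the titles, but the correlations of same-numbered deviations were -0.04, 0.12 and 0.28, so the numbers were not taken as pairs. Other pseudocounts, filters, scalings, weights, a variance trend, a replicate block and leaving out each array were tried.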

Additional observations from a re-analysis of the deposited data

How the results depend on the processing

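The count of called members was 0 under every alternative except array weights (17) and leaving out single arrays, where it ran from 0 to 5, the 5 without GC13 replicate 2; with the replicate block, which is no pairing here, it was 0. Over all tested probe sets, 44 passed as reported, 119 with a pseudocount of 32, 23 with 50% of probe sets left out, 28 as deposited, 29 centred on the 75th percentile, 3850 with array weights, 78 with the replicate block, and 0 to 1396 with single arrays left out. The members' median log2 difference of 0.198 was 0.0937 with a pseudocount of 32, -0.0423 with quantile normalization, -0.0026 with cyclic loess, and 0.143 to 0.284 with single arrays left out. The share of members above 0 was 46.9% with quantile normalization and 49.0% with cyclic loess. For the small subunit the median was 0.0893 with a pseudocount of 32, 0.109 as deposited, -0.0423 with quantile normalization and -0.0353 with cyclic loess. For the large subunit it was 0.108, 0.146, -0.0309 and 0.0073 under the same settings, and 0.121 to 0.287 with single arrays left out. For the members above 500 it was -0.125 with quantile normalization and -0.0729 with cyclic loess. Rplp0 turned to -0.101 and Rps3a1 to -0.0487 with quantile normalization, and 1 dim Rps4x probe set to -0.0872 with array weights. The cause of these changes was not tested. The limit of 500 was chosen after seeing the data. No detection calls were used, so it is unknown which dim probe sets lay above background.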
